A study of Mus musculus with 2 samples.

Results

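Mast cells were examined among tdTomato-sorted cells of E14 mouse embryos. They were taken as the cells with at least 20 UMIs (unique molecular identifiers, each standing for 1 captured RNA molecule) summed over Cma1, Cpa3 and Tpsb2, among barcodes with at least 1000 UMIs and at most 10% of UMIs in mitochondrial genes. This gave 349 mast cells of 22086 kept cells. One 10x Genomics library was titled SRSF2f/f/Myf5-Cre/tdT and the other SRSF2f/w/Myf5-Cre/tdT. In both, Cre is driven by the Myf5 promoter and the tdTomato (tdT) reporter sits behind a stop cassette at Rosa26, so that cells with a Myf5-Cre history are labelled. The floxed gene Srsf2 encodes an SR splicing factor. It carries floxed alleles on both chromosomes in the first genotype and on a single chromosome in the second. The second genotype served as the control in the series design. The embryos had been decapitated and eviscerated, and the number of embryos behind a library was not given in the sources used here.

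The sources on the genotype of the libraries do not all point the same way, and the assignment was not settled here. The cell numbers tie the library titled f/f to a sequencing summary whose name and heading give it as the control, and the library titled f/w to one that gives it as the mutant. The order of the cell numbers that the study's text states for control and mutant cells goes with the titles instead. The directions it states for the shares of myogenic, endothelial and immune cells go with the sequencing summaries. The libraries are therefore named by their titles, as the library labelled f/f and the library labelled f/w, and no direction by genotype was drawn. Srsf2 (ENSMUSG00000034120, GRCm38 chromosome 11, 116849901 to 116853094, minus strand) was counted first as a check of the titles. In mast cells it had 161 UMIs in the library labelled f/f and 836 in the library labelled f/w. As CPM (UMIs of a gene per 1000000 UMIs of the same cells), this was 197 (168 to 230) and 134 (125 to 143), a log2 ratio of -0.56 (-0.80 to -0.31) for f/w over f/f. In all other cells the level was 219 and 154 CPM. By CPM, Srsf2 was thus lower in the library whose title keeps an intact allele, in mast cells and in the rest. The share of cells with a UMI of it, after thinning each cell to 2000 UMIs, did not show this in mast cells. It was 21.2% (8.98 to 38.9) in the library labelled f/f and 25.7% (21.0 to 30.9) in the library labelled f/w. In all other cells this share was 32.0% and 24.8%, lower in the library labelled f/w. The check in mast cells thus depended on the measure. Since there was 1 library per title, no test between libraries was made. Intervals are 95% exact Poisson, Clopper-Pearson or binomial-split intervals, and 95% log intervals for ratios of shares. They cover counting error only and say nothing of the spread between embryos. Intervals on levels and their ratios take UMIs summed over cells as independent, so they also leave out the spread between cells.

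Mast cells are tissue cells of the blood lineage that store mediators in granules. The granules hold serine proteases called chymases and tryptases, carboxypeptidase A3, histamine and serotonin, all bound to the proteoglycan serglycin. The cells depend on the receptor tyrosine kinase KIT, and crosslinking of IgE on the receptor FcεRI releases the granules. In fetal tissues they are known to derive from early blood progenitors, and their transcription depends on GATA2 and MITF, while basophils are a related lineage with its own protease set.

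The regions before the start sites of the marker genes are shown first because GATA factors are known regulators of several of them. The 250 bases before the RefSeq start (GRCm38.p6, sense strand of each gene, 5′ to 3′) were searched on both strands for the GATA word AGATAA, for its relative ending in G, which is AGATAG, and for the same pair with a leading T, which are TGATAA and, ending in G, TGATAG. Matches are in capitals. Cma1 (chr14:55944676-55944925, minus strand) and Mcpt4 (chr14:56062311-56062560, minus strand) encode chymases. Cpa3 (chr3:20242182-20242431, minus strand) encodes carboxypeptidase A3, and Ms4a2 (chr19:11623720-11623969, minus strand) the beta chain of FcεRI.
Cma1: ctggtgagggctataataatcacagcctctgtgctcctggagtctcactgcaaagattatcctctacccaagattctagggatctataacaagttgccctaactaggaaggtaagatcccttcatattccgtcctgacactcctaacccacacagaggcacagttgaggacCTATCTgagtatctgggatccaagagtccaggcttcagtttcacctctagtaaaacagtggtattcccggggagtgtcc
Cpa3: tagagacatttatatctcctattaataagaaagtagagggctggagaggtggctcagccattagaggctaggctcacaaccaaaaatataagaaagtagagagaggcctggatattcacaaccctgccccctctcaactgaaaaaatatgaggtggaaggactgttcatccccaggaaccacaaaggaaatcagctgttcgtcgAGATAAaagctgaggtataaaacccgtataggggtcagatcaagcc
Ms4a2: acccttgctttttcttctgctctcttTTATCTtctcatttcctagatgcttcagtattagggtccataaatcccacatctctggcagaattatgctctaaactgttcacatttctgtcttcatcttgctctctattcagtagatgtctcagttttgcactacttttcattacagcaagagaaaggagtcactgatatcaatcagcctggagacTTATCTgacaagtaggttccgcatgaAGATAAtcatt
Mcpt4: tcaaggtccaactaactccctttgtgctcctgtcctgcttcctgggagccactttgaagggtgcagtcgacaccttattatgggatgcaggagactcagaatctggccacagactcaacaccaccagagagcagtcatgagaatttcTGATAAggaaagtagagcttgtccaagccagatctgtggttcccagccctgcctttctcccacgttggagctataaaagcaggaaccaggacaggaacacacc
Cma1, Cpa3 and Mcpt4 each held 1 such word, with its first base 79, 46 and 103 bases before the start, and Ms4a2 held 3, at 224, 37 and 11 bases before it. Of 32851 promoters in the table, 26.5% held at least 1 word in this window. Of the 10 mast cell markers on the list used here, 8 were found in the table and 6 of these held a word. Hdc and Fcer1a were the other two, and Kit and Gata2 held none. A word is a match of letters and not a binding site.

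Mast cells were chosen by their measured UMIs of Cma1, Cpa3 and Tpsb2, so the levels of these genes are given as a description. The sum of the 3 genes was 0 in 11745 cells of the library labelled f/f and in 7243 cells of the library labelled f/w. Between 1 and 4 UMIs lay 361 and 2366 cells, and between 5 and 19 UMIs 5 and 17 cells. Among mast cells the lowest, median and highest sums were 99, 397 and 935 UMIs in the library labelled f/f. The same values were 25, 443.5 and 1043 UMIs in the library labelled f/w. Just outside the limit, the highest sums were 17 and 14 UMIs in the library labelled f/f, and 18 and 14 in the library labelled f/w. Just inside it, the 2 lowest sums were 99 and 122 UMIs, and 25 and 62 UMIs. Only 7 cells lay between 10 and 19 UMIs, and 6 of the 349 mast cells lay below 100.

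**Figure D1:**
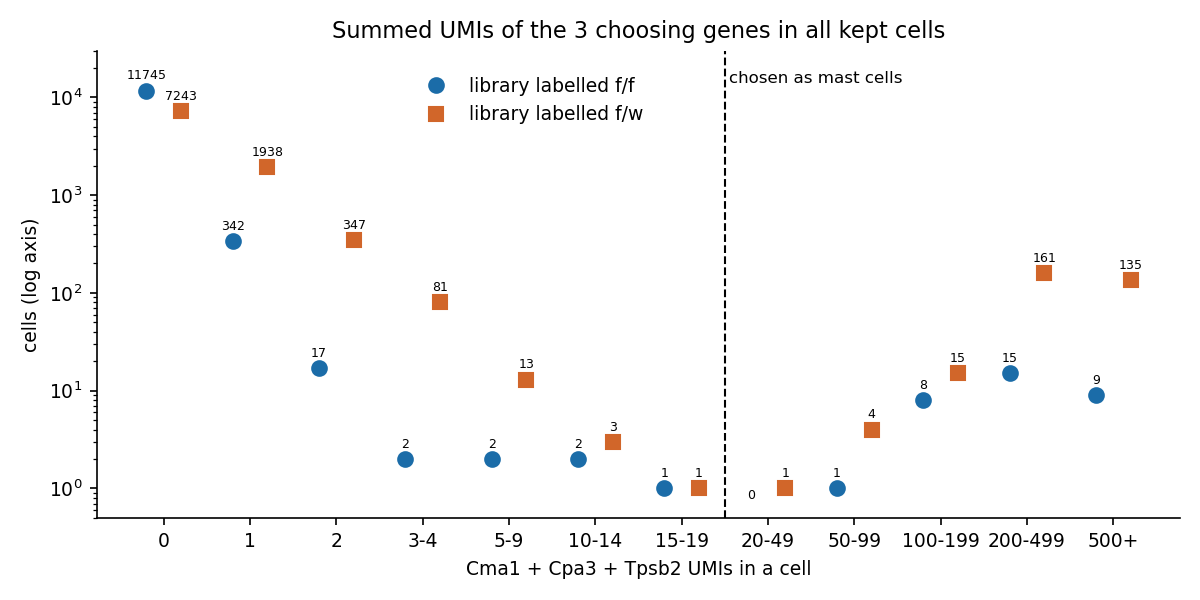
Number of cells (log axis) by the summed UMIs of Cma1, Cpa3 and Tpsb2 in a cell, in bins of unequal width, for both libraries, with the number above each symbol and the limit of 20 UMIs as a dashed line. Most cells held 0 UMIs, and few cells of either library lay near the limit.

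The label was checked against genes that did not choose the cells. Ms4a2 had a UMI in 15 of 33 mast cells of the library labelled f/f (45.5%, 28.1 to 63.6) and in 117 of 316 of the library labelled f/w (37.0%, 31.7 to 42.6). In all other cells the share was 0.0743% and 0.0831%. In endothelial cells (at least 3 UMIs of Pecam1 and Cdh5), which should lack the gene, it was 0 of 447 (where a floor of 3 cells allows a share of cells with a UMI of up to 0.671%, and the exact upper limit was 0.822%), and 2 of 1089 (0.184%). The median depths were 23221 and 17573 UMIs in mast cells and 13781 and 17061 in endothelial cells. At 2000 UMIs per cell, Ms4a2 was seen in 3 of 33 (9.09%, 1.92 to 24.3) and 18 of 315 (5.71%, 3.42 to 8.88) mast cells. In all other cells it was seen in 3 and 2 cells (0.0251% and 0.0214%). The mast cell value of the library labelled f/f and both values of the other cells were thus at or below the floor of 3 cells. The level of Ms4a2 was 51.3 CPM (37.0 to 69.4) and 29.1 CPM (25.0 to 33.7). Kit and Hdc, the histidine decarboxylase that makes histamine, were seen in most mast cells. Kit had a UMI in 97.0% and 97.5% of mast cells, and Hdc in every one of the 349. Kit is also used by endothelial cells, where 40.5% and 43.9% of cells had a UMI of it, and in all other cells 6.66% and 12.9% did. Hdc was seen in 4.03% and 10.6% of endothelial cells.

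Fcer1a, the IgE-binding alpha chain of FcεRI, went the other way. It had 0 UMIs in the 33 mast cells of the library labelled f/f and 1 UMI in the 316 of the library labelled f/w. The gamma chain Fcer1g had a UMI in 33 and 315 of these cells, and its level was 894 and 1555 CPM. It did not set mast cells apart from macrophages (at least 20 UMIs of C1qa, C1qb and C1qc), where it had 1628.8 and 2000.5 CPM. In mast cells, FcεRI thus had transcripts of its beta and gamma chains in both libraries. The alpha chain was not detectable in them at this depth beyond a single UMI.

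Defining genes of macrophages and neutrophils were at or near 0, while genes of fibroblasts and some other tissue cells were not. C1qa, C1qb and C1qc, the complement genes of macrophages, had 0, 3 and 1 UMIs over all 349 mast cells, and Fcgr1 and Itgam had 0. Over the 12 genes of the macrophage list the summed level was 172 and 135 CPM, against 8658 and 7530 CPM in the 50 and 60 macrophages (at least 20 C1q UMIs). Cx3cr1, a chemokine receptor gene also used by macrophages, made up most of it, with 166 CPM and 123 CPM and a UMI in 68.5% of mast cells. None of the 11 neutrophil and monocyte genes reached 20 UMIs in mast cells. The 8 fibroblast genes summed to 1770 and 802 CPM in mast cells, against 6030 and 4364 CPM in all other cells, and to 186 and 125 CPM without the mast cells that carried RNA of another cell type (described with the library comparison). Cartilage and bone genes summed to 176 and 545 CPM, and to 147 and 149 CPM without those cells. Erythroid and platelet genes summed to 89.2 and 564 CPM, and to 89.0 and 105 CPM without them. Xist was at 0 UMIs in all mast cells, and genes of the Y chromosome had a UMI in 32 of 33 and in 278 of 316 of them. Myf5, whose promoter drives the Cre, had 1 UMI in the mast cells of each library.

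Mast cells were few in the library labelled f/f and many in the library labelled f/w. They were 33 of 12144 kept cells (0.272%, 0.187 to 0.381) in the first and 316 of 9942 (3.18%, 2.84 to 3.54) in the second. The ratio of the shares was 11.7 (8.18 to 16.7). The shares are of cells inside the tdT gate, and they depend on what else passed that gate. Myogenic cells (UMIs of at least 2 of Pax3, Pax7, Myf5, Myod1, Myog and Myh3) made up 20.4% of the library labelled f/f and 1.29% of the library labelled f/w. Lymphoid cells (at least 5 UMIs of Cd3g, Cd3e and Gzma) were 17 and 161 cells, a ratio of 11.6 (7.02 to 19.1), close to that of mast cells. Macrophages were 50 and 60 cells, a ratio of 1.47 (1.01 to 2.13). Among cells with a UMI of Ptprc, which encodes the pan-leukocyte antigen CD45, mast cells were 21.0% (14.1 to 29.4) and 41.4% (37.1 to 45.7). The mast cells were deeper than the other cells, with a median of 4240 and 3449 genes against 3090 and 2878, and their mitochondrial share was 3.60% and 3.57%. Before pooling, reads had been down-sampled, so that the median per barcode of the library labelled f/w fell from 9372 to 8105.5 UMIs, while that of the library labelled f/f stayed at 9219. The libraries shared 41 barcode sequences among kept cells, and none was a mast cell in both.

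Granule proteases are described first, beginning with the genes that chose the cells. Cma1 (ENSMUSG00000022225, GRCm38 chromosome 14, 55941451 to 55944675) had 6884 CPM in the library labelled f/f and 12352 CPM in the library labelled f/w. Its UMIs per cell ran from 3 over a median of 165 to 524 in the first, and from 0 over 225 to 655 in the second. Cpa3 (chromosome 3, 20215620 to 20242181) had 7040 and 7667 CPM, and every mast cell held at least 15 UMIs of it. Tpsb2, a tryptase (chromosome 17, 25366305 to 25369098), had 1691 and 3441 CPM. Cma1 and Tpsb2 were thus higher in the library labelled f/w, by 0.84 (0.80 to 0.88) and 1.03 (0.95 to 1.10) on the log2 scale, and Cpa3 by only 0.12 (0.08 to 0.16). These 3 values come from the genes that chose the cells and support nothing further.

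Of the 13 other granule proteases, 10 had at least 100 UMIs in mast cells, and 7 of these were 4-fold or more above all other cells in both libraries. Over all 5786 genes with at least 100 UMIs in mast cells, 6.36% were. That minimum was set on mast cells themselves, so listed genes that are low in them were not compared, and counts of this kind are a description. The tryptase Tpsab1 had 165 and 409 CPM, with medians of 3 and 6 UMIs per cell, and Tpsg1 had 358 and 379 CPM, with a median of 7 in both. Granzyme B, a protease known best from cytotoxic lymphocytes, had 792 and 999 CPM of Gzmb, and a UMI in 81.8% and 77.8% of mast cells. Cells ranged from 0 UMIs of Gzmb to 124 in the library labelled f/f and to 273 in the library labelled f/w, and every cell of the first lay within the range of the second. The lysosomal cathepsins Ctsb, Ctsd and Ctsz did not set mast cells apart and were far lower than in macrophages, where Ctsb had 2250 CPM in the library labelled f/w against 69.7 CPM in its mast cells.

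Most of these proteases sit in a pair of gene clusters. On chromosome 14, Cma1, Cma2, Mcpt1, Mcpt2, Mcpt4, Mcpt8, Mcpt9, Ctsg and Gzmb lie within 321 kb (GRCm38, 55941451 to 56262260). Of these 9 genes, 8 had at least 20 UMIs in mast cells, and Mcpt9 had 0. Summed over the cluster, the level was 7857 and 13695 CPM, of which Cma1, a gene that chose the cells, made up 6884 and 12352 CPM. On chromosome 17, Prss34, Tpsab1, Tpsb2 and Tpsg1 lie within 76.0 kb (25298394 to 25374442), and they summed to 2509 and 4557 CPM, of which Tpsb2, which also chose the cells, made up 1691 and 3441 CPM. The 3 others were each 4-fold or more above other cells in both libraries (6.36% of all genes). Members of each cluster are close paralogs, and reads shared between them would leave single levels uncertain.

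Mcpt4, the chymase of connective tissue mast cells, was unevenly held. It had 14 UMIs in 5 of 33 mast cells of the library labelled f/f, or 17.1 CPM (9.36 to 28.7). It had 1197 UMIs in 65 of 316 mast cells of the library labelled f/w, or 191 CPM (181 to 203), a log2 ratio of 3.48 (2.73 to 4.36). In that library 5 cells held 792 of the 1197 UMIs (66.2%), and the highest held 254. The share of mast cells with a UMI differed less than the level, at 15.2% and 20.6%. Cathepsin G, a further granule protease, was also higher in the library labelled f/w, with 9.78 and 60.5 CPM of Ctsg and 15.2% and 30.1% of mast cells. The mucosal-type proteases Mcpt1 and Mcpt2 were rare, with 2 and 51 UMIs for Mcpt1 and 6 and 94 UMIs for Mcpt2.

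Genes for the other granule contents were high in nearly every cell. Srgn, the serglycin core protein, had 2938 and 3744 CPM. Hdc had 2491 CPM (2384 to 2602) and 3522 CPM (3475 to 3568), with 14 to 151 UMIs per cell in the library labelled f/f and 7 to 163 in the library labelled f/w. Against all other cells of the same library, Hdc was 2297-fold and 556-fold higher. Tph1, the tryptophan hydroxylase that starts serotonin synthesis, had 353 and 688 CPM, and the amine transporter Slc18a2 had 133 and 159 CPM. Of the 9 genes of this list, 7 were 4-fold or more above other cells in both libraries (6.36% of all genes). Ndst2, which modifies heparin, was lower in the library labelled f/w, with 112 and 69.7 CPM.

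**Figure D2:**
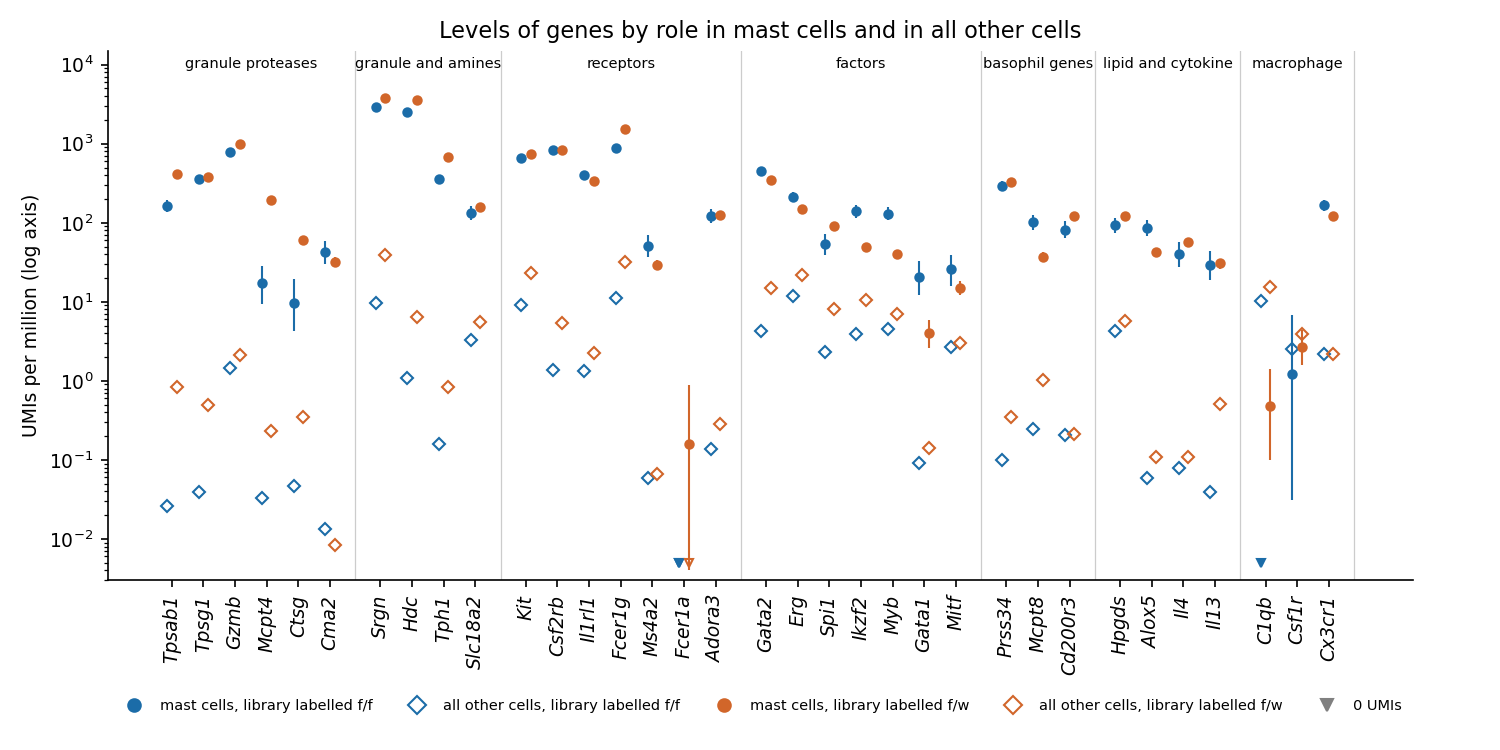
Level in CPM (log axis) of listed genes by role in mast cells (filled circles, with exact Poisson intervals) and in all other cells (open diamonds) of both libraries, with triangles for 0 UMIs. Mast cells lay above other cells for the proteases, amine genes and most receptors, while Fcer1a and C1qb were at or near 0.

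Receptors and their signalling genes followed. The common beta chain of the IL-3, IL-5 and GM-CSF receptors, Csf2rb, had 833 and 827 CPM and a log2 ratio of -0.01 (-0.13 to 0.11) between libraries. Kit had 661 CPM (607 to 720) and 749 CPM (727 to 770). Il1rl1, the IL-33 receptor ST2, had 399 and 339 CPM, and the adenosine receptor Adora3 had 122 and 127 CPM. The 9 receptor genes with at least 100 UMIs were each 4-fold or more above other cells in both libraries (6.36% of all genes), and none was past 2-fold between libraries. Over all 5786 genes, 3.15% were 2-fold or more higher and 3.08% 2-fold or more lower in the library labelled f/w. Of the 27 receptor genes, 18 fell short of 100 UMIs. Among these were Mrgprb2 and Mrgprx2, with 2 UMIs each, and Mrgprb1 with 9, which belong to the Mas-related receptor family that includes the receptor for basic secretagogues of mature mast cells. Downstream of FcεRI, the kinase Btk (59.9 and 45.8 CPM), the adaptor Lat2 (181 and 244 CPM) and Lcp2 (123 and 125 CPM) were present, whereas the kinase Syk had only 2 and 26 UMIs.

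Transcription factors of the mast cell lineage were detected, with 13 of 22 listed genes at 100 UMIs or more. Gata2 had 455 and 345 CPM, and a UMI in 100% and 93.7% of mast cells, with medians of 10 and 6 UMIs per cell. Erg had 214 and 148 CPM and Spi1 53.8 and 90.5 CPM. Mitf was low, with 21 and 94 UMIs. Of the 13 factors with at least 100 UMIs, 7 were 4-fold or more above other cells in both libraries (6.36% of all genes), and 2 were 2-fold or more lower in the library labelled f/w (3.08% of all genes). These were Myb, a progenitor factor, with 131 CPM (107 to 158) and 40.0 CPM (35.2 to 45.3), and Ikzf2 with 139 and 50.1 CPM. Gata1, the erythroid and megakaryocyte factor also used by mast cells, had 20.8 CPM (12.1 to 33.3) and 4.0 CPM (2.59 to 5.90), from 17 and 25 UMIs only. Over the 13 factors the median log2 ratio was -0.40, beside -0.08 over all 5786 genes.

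Basophil genes were used by many mast cells. Prss34, also called mMCP-11 and a protease best known from basophils, had 295 and 327 CPM, and a UMI in 69.7% and 61.1% of mast cells, but in 0.0743% and 0.436% of all other cells. Mcpt8, a basophil protease, had 101 CPM (80.8 to 126) and 37.1 CPM (32.5 to 42.2), a log2 ratio of -1.45 (-1.82 to -1.07), and a UMI in 36.4% and 33.2% of mast cells. A single cell held 48 of its 83 UMIs in the library labelled f/f. Without mast cells that also carried RNA of another cell type (described with the library comparison) the ratio of Mcpt8 was -0.40. In all, 68 of the 105 Mcpt8-positive mast cells of the library labelled f/w also held Prss34, where 193 of all 316 mast cells did. The share with Prss34 was thus close to that of all mast cells there. Cd200r3, an activating receptor gene of basophils and mast cells, had 81.9 and 121 CPM. The 4 basophil-list genes with at least 100 UMIs were each 4-fold or more above other cells in both libraries (6.36% of all genes).

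Genes of mediators made on demand were present at low levels. Il4 had a UMI in 17 of 33 and 196 of 316 mast cells, and 40.3 and 57.1 CPM, against 0.0794 and 0.109 CPM in all other cells. Il13 had 29.3 and 30.6 CPM, and 59 mast cells of the library labelled f/w held both cytokines. Il5 and Il9 had 1 and 0 UMIs. For lipid mediators, Hpgds (prostaglandin D synthase) had 92.9 and 122 CPM and Alox5 (the 5-lipoxygenase of leukotriene synthesis) 86.8 and 42.7 CPM, while Ltc4s had 2 and 16 UMIs. Of 7 cytokine and chemokine genes with at least 100 UMIs, 5 were 4-fold or more above other cells in both libraries (6.36% of all genes). Ccl4, a chemokine gene at 3054 and 3954 CPM in macrophages, had 0 and 114 UMIs in mast cells, 47 of them in 1 cell.

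Pan-blood genes marked the cells as hematopoietic. Of 9 such genes with at least 100 UMIs, 8 were 4-fold or more above other cells in both libraries, where 6.36% of all 5786 genes were, and none was past 2-fold between libraries. The signalling adaptor gene Tyrobp had 549 and 714 CPM, and Ptprc had 88.0 and 72.3 CPM, with a UMI in 75.8% and 69.6% of mast cells. Of 11 integrin and adhesion genes, 5 had at least 100 UMIs, and 2 of these were 4-fold or more above other cells in both libraries. They were Itga4 and Itgb7, which encode the subunits of the homing integrin α4β7. Itga4 had 577 and 401 CPM and Itgb7 47.7 and 44.0 CPM. Of 10 survival genes, 6 had at least 100 UMIs, and 1 of these was 4-fold or more above other cells in both libraries. This was Bcl2a1d of the BCL2 family, with 9.78 and 18.2 CPM. Of 9 lymphoid-list genes, 3 had at least 100 UMIs, and 2 of these were so, Il7r and Nkg7. Nkg7, a granule protein gene of cytotoxic cells, had 57.5 and 37.6 CPM. Cd3e had 0 and 2 UMIs.

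Beyond the lists, 15 genes with at least 200 UMIs stood highest against other cells, taking the lower of both libraries. They were Rgs13, Ccr8, Grm6, Cyp11a1, Ccl17, Gpr65, Cst7, Icam4, Cd200r1, Maob, Ap1s3, Tnfrsf9, Otulinl, Rgs18 and Sytl3. Rgs13, a regulator of G protein signalling, was 1479-fold and 1179-fold above other cells, with 58.7 and 99.0 CPM. Cyp11a1, the side-chain cleavage enzyme that starts steroid synthesis from cholesterol, had a UMI in all 349 mast cells, 625 and 923 CPM, and at most 2.23 CPM in other cells. Grm6, a glutamate receptor gene known from retinal bipolar cells, had 58.7 and 131 CPM and a UMI in 63.6% and 84.8% of mast cells. Gpr65, a proton-sensing receptor, had 322 and 312 CPM, and Maob, an amine oxidase, 318 and 343 CPM. For 12 of the 15 a promoter was in the table, and 6 of these held a GATA word, where 26.5% of all 32851 promoters did. Rgs13 held 4, at 221, 35, 25 and 10 bases before the start. Fold values of these genes follow from how they were picked and are a description.

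Single mast cells differed widely in protease content. In each library they were ordered by UMIs of Cma1, Cpa3, Tpsb2 and Mcpt4 per 10000 UMIs and divided into 3 groups of equal size. Other genes are given per 10000 UMIs outside these 4. In the library labelled f/w the lowest group of 106 cells held 25.2 to 206 protease UMIs per 10000 and the highest group of 105 cells 320 to 844. Hdc went from 26.5 over 40.1 to 49.3 across the groups, Srgn from 24.9 over 41.2 to 60.8, Fcer1g from 9.88 over 17.9 to 25.1 and Tph1 from 4.35 over 7.43 to 11.8. Prss34 went from 1.25 over 3.50 to 7.25. Gata2 stayed at 3.36, 3.73 and 3.61, and Gzmb went down from 12.1 over 9.03 to 8.24. The groups also differed in depth, with median UMIs of 24411, 17587 and 13761. They differed as well in cells that carried RNA of another cell type, with 37, 13 and 1 of them. Their part in these values was not tested.

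With 11 cells per group in the library labelled f/f, Hdc (19.8, 26.7 and 32.9), Srgn (23.0, 28 and 44.7) and Fcer1g (5.63, 9.75 and 14.2) had the same order. Tph1 did not, at 3.87, 3.61 and 3.06, and Prss34 was at 1.31, 1.14 and 8.70. Tpsb2 was at 0.953, 20.6 and 40.8 per 10000 and Cpa3 at 43.0, 69.6 and 125, which is a description, since both genes set the order of the cells. Top2a was at 5.75, 5.15 and 1.74 per 10000 there, but at 1.64, 1.61 and 1.3 in the library labelled f/w. The groups of the library labelled f/f also differed in depth, with median UMIs of 28333, 21739 and 17501. They held 1, 3 and 1 cells that carried RNA of another cell type, and the part of either was not tested.

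**Figure D3:**
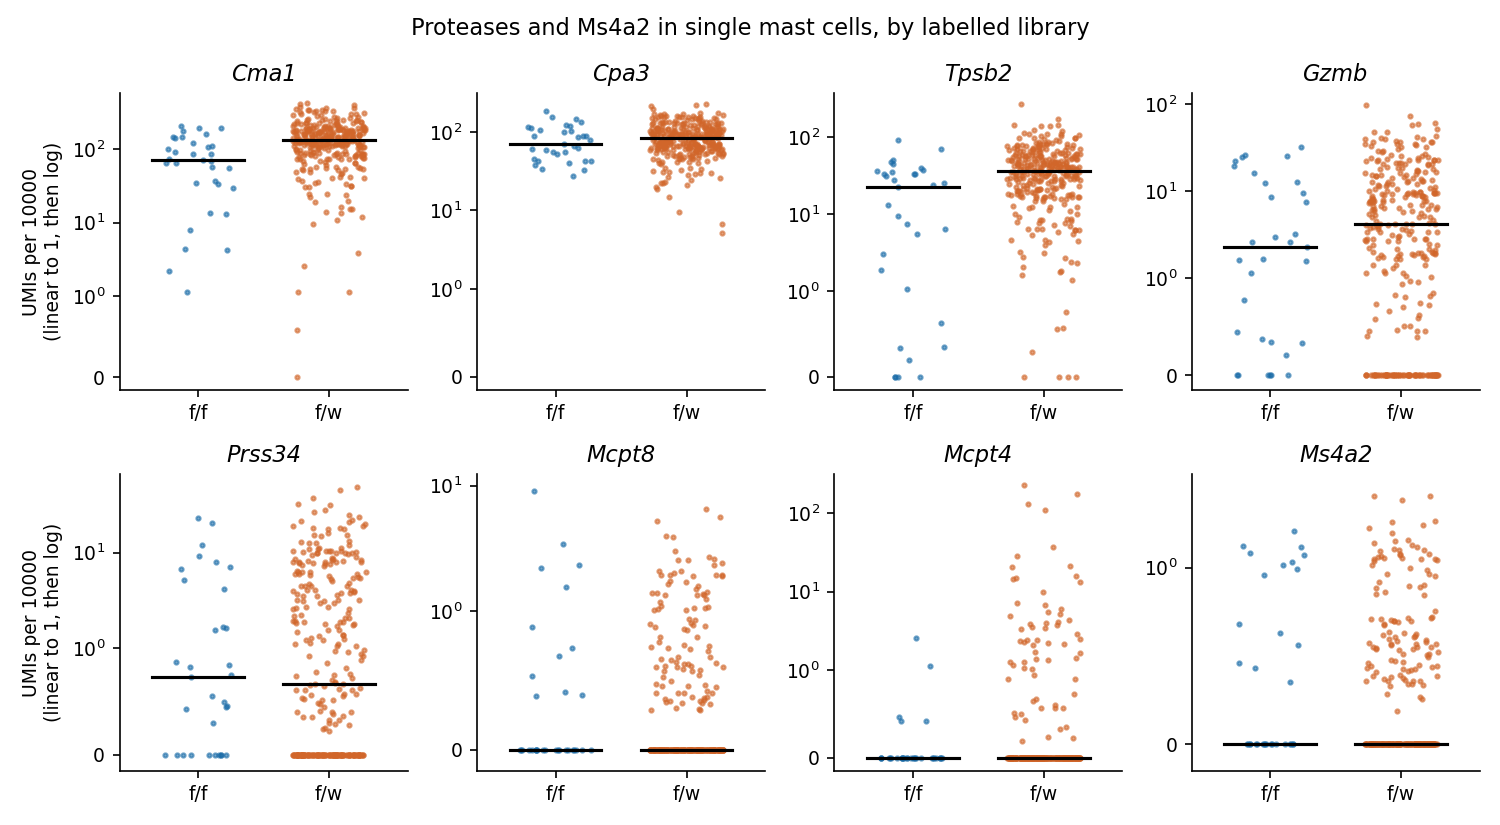
UMIs per 10000 (linear up to 1, then log) of proteases and Ms4a2 in single mast cells, 1 point per cell, with the median as a line, for the 33 cells of the library labelled f/f and the 316 cells of the library labelled f/w. Cpa3 was held by every cell, whereas Mcpt4, Mcpt8, Prss34 and Ms4a2 were at 0 in many cells of both libraries.

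Cycling was more frequent among mast cells of the library labelled f/f. The 10 genes used were Mki67, Top2a, Cdk1, Ccnb1, Ccnb2, Cenpf, Birc5, Tpx2, Nusap1 and Ube2c. A cell counted as cycling with at least 2 UMIs over these 10 genes, after each cell was thinned to 2000 UMIs. This held for 17 of 33 mast cells (51.5%, 33.5 to 69.2) in the library labelled f/f and for 79 of 315 (25.1%, 20.4 to 30.2) in the library labelled f/w, where 1 shallower cell was left out. Without thinning the shares were 81.8% and 71.2%. In macrophages they were 32.7% and 21.7%, in endothelial cells 34.9% and 35.4%, and in all other cells 29.1% and 18.3%, thinned alike. Without carrying cells, described with the library comparison, mast cells were at 50% and 23.9%.

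The 16 listed cell cycle genes include the 10 that set which cells were called cycling. All 16 had a lower level in mast cells of the library labelled f/w, with log2 ratios from -1.84 to -0.46. Of these, 11 were 2-fold or more lower, where 3.08% of all 5786 genes were. The median was -1.24, beside -0.08 over all genes. Top2a, the topoisomerase that untangles DNA in mitosis, had 452 and 151 CPM, with medians of 6 and 1 UMIs per cell, a ratio of -1.58 (-1.75 to -1.40). In all other cells of these libraries Top2a was at 312 and 162 CPM, lower in the same library. Mki67, a proliferation marker, had 198 and 80.6 CPM, and the replication factor Pcna 161 and 113 CPM. None of the 4 cell cycle inhibitor genes with at least 100 UMIs was past 2-fold between libraries. Mast cells called cycling also expressed granule genes. In the library labelled f/w, Hdc was at 3550 CPM in 79 cycling cells and 3509 CPM in 236 others, and Cma1, a gene that chose the cells, at 12244 and 12400 CPM. For the library labelled f/f, Hdc was at 2233 CPM in 17 cycling cells and 2903 CPM in 16 others, and Cma1 at 5463 and 9142 CPM. Cycling cells were deeper in both, with median UMIs of 29436 against 17966 and of 23306 against 16392.

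**Figure D4:**
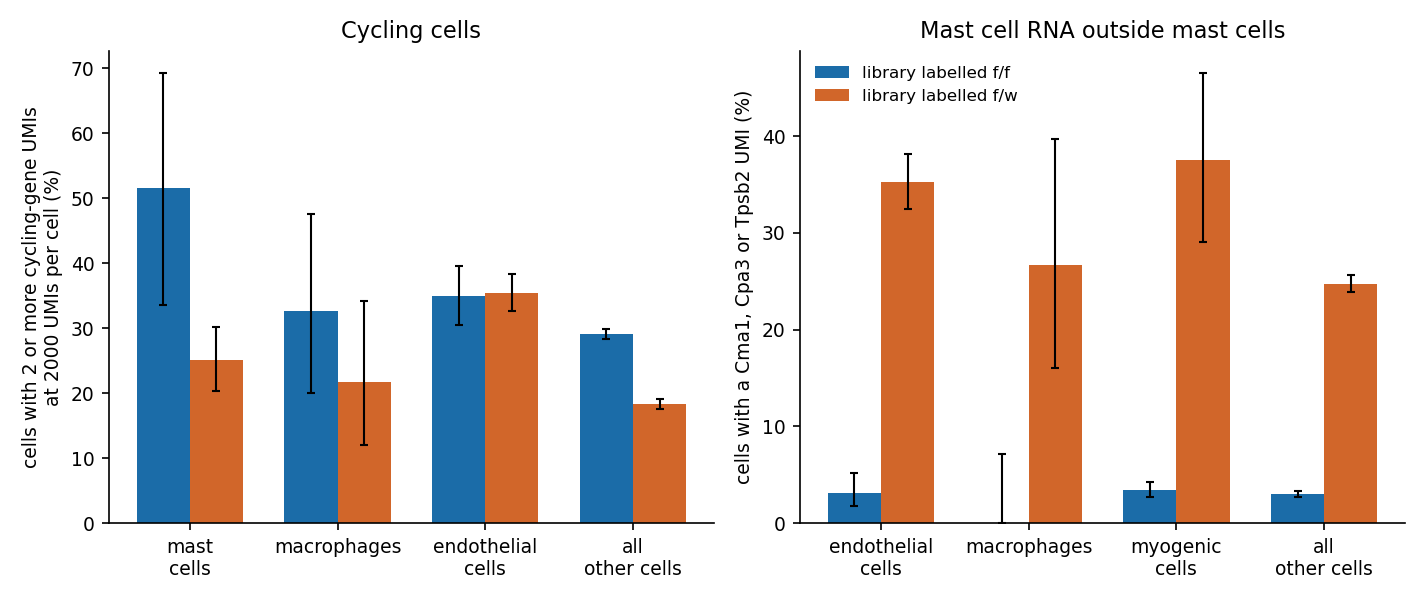
Left, percent of cells with 2 or more UMIs of 10 cycling genes at 2000 UMIs per cell in mast cells and 3 other populations. Right, percent of cells outside the mast cells with a UMI of Cma1, Cpa3 or Tpsb2. Bars are shares per library with exact Clopper-Pearson intervals. Mast cells were at 51.5% and 25.1% on the left, and all other cells at 3.02% and 24.8% on the right.

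The libraries were then compared over the 5786 genes with at least 100 UMIs in mast cells. Of these, 182 (3.15%) were 2-fold or more higher and 178 (3.08%) 2-fold or more lower in the library labelled f/w. None of 10 SR splicing factor genes with at least 100 UMIs was past 2-fold, and their median log2 ratio was -0.23. Of 13 stress and immediate early genes, 4 were 4-fold or more below other cells in both libraries, where 3.08% of all 5786 genes were. Fos, an immediate early gene, had 218 and 322 CPM in mast cells and 1181 and 1683 CPM in all other cells. Hsp90aa1, a heat shock chaperone gene, had 1648 and 884 CPM in mast cells and 1412 and 1437 CPM in all other cells.

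The 8 genes with the highest ratio were Krt14, Ccl21a, Krt5, Rtn1, Spp1, Perp, Sfn and Fabp4, which are known from epidermis, lymphatic endothelium, neurons, bone and fat or vessels rather than from mast cells. Each had 1 to 3 UMIs in mast cells of the library labelled f/f. In the library labelled f/w their UMIs were held by few cells. For Krt14 these were 614 UMIs in 35 of 316 mast cells, 290 of them in 1 cell, against 1 UMI in the library labelled f/f, a log2 ratio of 6.33 (3.84 to 11.6). Over the lists of other cell types, 5 of 33 mast cells (15.2%, 5.11 to 31.9) and 51 of 316 (16.1%, 12.3 to 20.7) held at least 20 UMIs of 1 list. Fibroblast genes were carried by 5 and 37 mast cells, cartilage and bone genes by 0 and 23, neural genes by 0 and 7, endothelial genes by 0 and 6, epidermal genes by 0 and 4 and erythroid genes by 0 and 1, the last with 2895 UMIs. No mast cell carried macrophage or muscle genes at that level. Carrying cells were deeper, with median UMIs of 33998 against 22199 in the library labelled f/f and of 28103 against 16702 in the library labelled f/w. No caller of doublets was run, and what these cells are was not tested.

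Without these cells, 28 and 265 mast cells remained. Then 107 (2.28%) of 4695 genes were 2-fold or more higher and 136 (2.9%) 2-fold or more lower in the library labelled f/w. Of the calls with all mast cells, 55 of the higher and 85 of the lower genes were past the fold in both settings. Krt14 was then at 5.82 CPM in the library labelled f/w, against 98.2 CPM with all mast cells. The 8 highest genes then were Tac1, Mcpt4, Ckm, Map1b, Gm26532, Rpl39l, Ctsg and Isg15, so the granule proteases Mcpt4 (log2 ratio 4.17) and Ctsg (2.37) came to the top. Creatine kinase M, Ckm, had 4 and 120 UMIs in all mast cells, in 75 cells of the library labelled f/w, at no more than 7 a cell.

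With all mast cells, the 8 lowest genes were Hook2, Hmmr, Postn, Samhd1, Kif4, Col14a1, Nusap1 and Nrk. Hook2, which links endosomes and centrosomes to microtubules, had 72.1 and 9.12 CPM, a log2 ratio of -2.98 (-3.53 to -2.43), with the highest cell at 24 UMIs. Hmmr, Kif4 and Nusap1 act on the mitotic spindle and were at -2.44, -1.93 and -1.84. Postn, Col14a1 and Nrk are fibroblast or stromal genes, and without carrying cells their ratios shrank from -2.22, -1.91 and -1.83 to -0.80, -0.21 and -0.63. Those of Hook2, Hmmr, Samhd1 and Kif4 were then -3.47, -2.26, -2.43 and -1.55. Of 16 cell cycle genes, 12 were 2-fold or more lower without carrying cells, where 2.9% of all 4695 genes were. The median of the 16 was then -1.21, beside -0.08 over all genes.

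**Figure D5:**
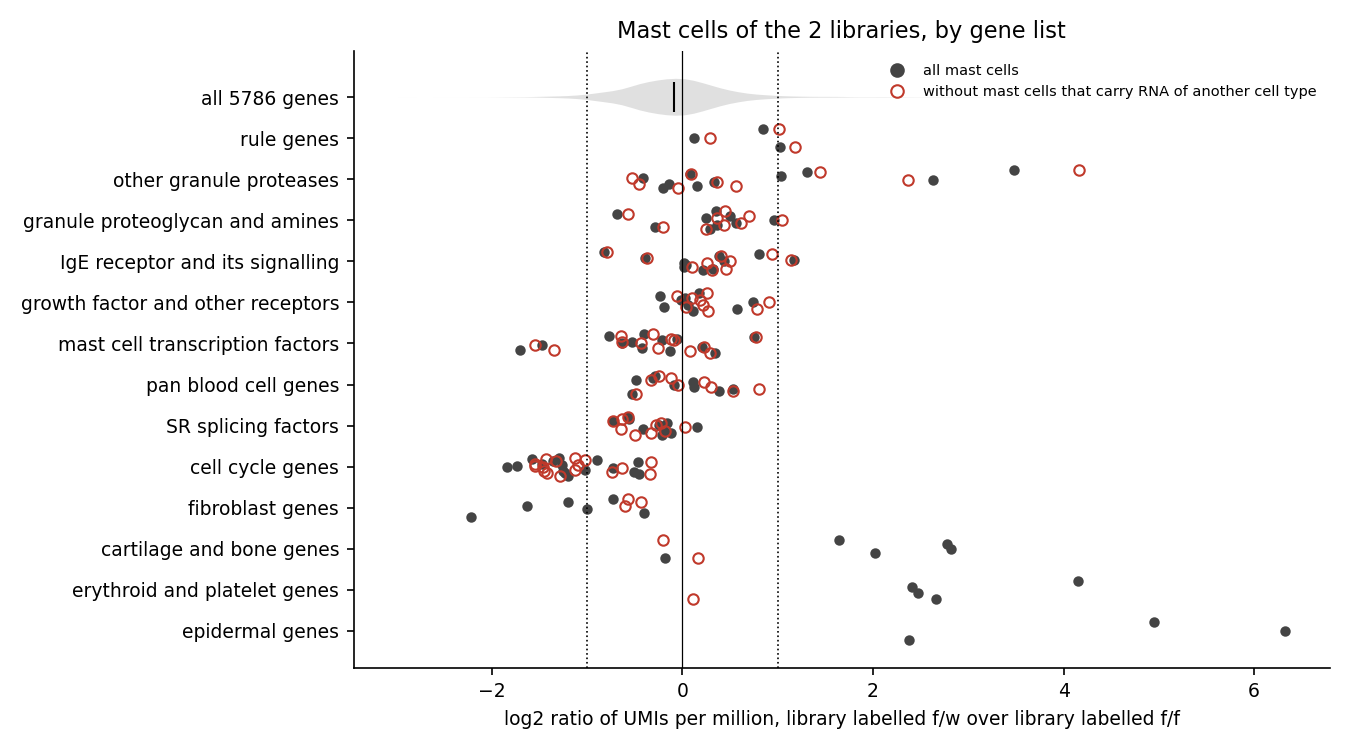
Log2 ratio of CPM in mast cells, library labelled f/w over library labelled f/f, for genes with at least 100 UMIs, by list. Black points use all mast cells and red circles leave out cells that carried RNA of another cell type. The grey shape is the spread of all 5786 genes with its median as a tick, and dotted lines mark 2-fold. Cell cycle genes lay below 0 in both settings, while 4 cartilage, 4 erythroid and 3 epidermal genes were past 2-fold with all mast cells, and none of the 2, 1 and 0 still at 100 UMIs was without carrying cells.

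Mast cell RNA was also found outside the mast cells. A UMI of Cma1, Cpa3 or Tpsb2 was in 366 of 12111 other cells (3.02%, 2.72 to 3.34) of the library labelled f/f and in 2383 of 9626 (24.8%, 23.9 to 25.6) of the library labelled f/w. Their summed level was 2.90 and 25.4 CPM, against 15615 and 23459 CPM in mast cells. Endothelial cells, which should lack these genes, were at 3.13% and 35.3%, and macrophages at 0 of 50 (where the floor of 3 cells allows up to 6.00%, and the exact upper limit was 7.11%) and 16 of 60 (26.7%). Levels in endothelial, myogenic and all other cells were close to each other within a library, at 2.06, 2.25 and 2.90 CPM and at 21.9, 24.4 and 25.4 CPM. Outside the mast cells, Cma1 made up 47.6% (42.9 to 52.4) and 56.8% (55.0 to 58.6) of the UMIs of the 3 genes, against 44.1% and 52.7% inside them. Cpa3 made up 41.5% (36.8 to 46.2) and 27.9% (26.3 to 29.5) outside and 45.1% and 32.7% inside. The same 3 genes set which cells lay inside and outside, so these shares are a description and no difference was drawn from them. Of all UMIs of the 3 genes, 3.32% and 2.02% lay outside the mast cells. A single UMI of a protease gene is thus no sign of a mast cell in these libraries.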

How the data were processed

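The authors mapped reads of both libraries to mm10 and counted UMIs per gene with Cell Ranger (3.1.0 per the labels, 5.0.0 per the file headers), without introns, and pooled the libraries after down-sampling reads. The deposited values are counts, whole UMIs of 32285 genes in 27766 barcodes, before the study's filters on cells. The percent values of the deposited summaries give a sequencing saturation of 39.5% and 45.9% from 571426356 and 575393483 reads for the libraries labelled f/f and f/w. The matrix holds 156093779 and 128116615 UMIs. Barcode suffixes were assigned to samples by the cell numbers in the summaries.

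The filter removed 2110 and 1728 barcodes under 1000 UMIs and then 1014 and 828 above 10% mitochondrial UMIs, among them 1 and 3 barcodes with 20 or more UMIs of the 3 choosing genes. Mast cells held 817991 and 6251058 UMIs. UMIs were summed per library and population with pandas 2.3.3 and NumPy 2.4.6 under Python 3.11.15, intervals came from SciPy 1.17.1 and figures from matplotlib 3.10.9. A gene at 0 in a library was set at a floor of 3 UMIs over its cells. Genes with at least 100 UMIs over both libraries were compared between libraries (2-fold) and with other cells (4-fold in both libraries). Named genes are those of 27 lists, the 15 highest against other cells and the 8 highest and lowest between libraries. Carrying cells were found with 8 lists, without Cx3cr1, Ckm, Tnnt1 and Runx2, which many mast cells held at a low level. That step, its top genes and the lymphoid limit were chosen after the data were seen. The members and lists were chosen with earlier results of these data known. Gene coordinates are from GENCODE for GRCm38. Intervals for ratios were tried on simulated Poisson counts, which hold no extra spread between cells, so their coverage in the real cells was not tested. Thinning was also tried on simulated counts.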

Additional observations from a re-analysis of the deposited data

How the results depend on the processing

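No paired analysis was possible because each group had 1 library, and no replicate could be left out. Of 107 values under alternatives, 92 stayed within the interval of the reported value or, for counts, within 1.5 times, and none reversed. Among cells with a Ptprc UMI the log2 ratio of mast cell shares was 0.98 in place of 3.55, from shares of 21.0% and 41.4%. Of 10121 genes with at least 20 UMIs, 779 were higher and 727 lower in the library labelled f/w, and of 1828 with at least 500 UMIs 30 and 19. Against other cells with a Ptprc UMI, 34 in place of 64 listed genes were 4-fold or more higher in both libraries. Cycling shares were 69.7% and 43.2% with at least 1 UMI, and 13.7% in the library labelled f/w with at least 3. At 2000 UMIs per cell Ms4a2 was seen in 9.09% and 5.71% of mast cells, which were 3 and 18 cells. Without mast cells that carry RNA of another cell type, which was added once the data had been seen, the share in the library labelled f/w was 2.67% and 107 genes were higher. A limit of 10 or 50 UMIs for the choosing genes moved no value beyond these bounds. With 33 mast cells in the library labelled f/f, single genes there rest on few UMIs, and differences between embryos, libraries and gates cannot be told apart.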
